A study of Mus musculus with 13 samples.

Results

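Gene expression in CD31-sorted cells was compared between tumors treated with B20, an antibody that binds mouse VEGF-A, and control tumors. Of the 13 arrays of the series, the 8 titled as sensitive (n = 4) or resistant (n = 4) were pooled as B20-treated and the 5 titled as control formed the other group, so that 13 of 13 arrays were used. The tumors grew in mice from SKOV3ip1, a human ovarian cancer line. Per the methods, B20-treated mice were called sensitive or resistant by how their tumors grew under B20, and the study elsewhere describes sampling before treatment, at the best response and at progression, so that time on treatment may also differ between groups. The labels do not state what the control mice received or when they were sampled. The methods describe a control IgG, while the sampling just described has a pretreatment stage, and which of these the 5 control arrays are is not settled. The paper's tumor growth readings hold control IgG mice, and some B20-treated mice were read until later than others. These readings are not tied to single arrays. A treated minus control difference may therefore hold a difference in time as well as in antibody, and these cannot be told apart. The strain, age and time on treatment behind each array are not given in the labels. The methods name female athymic nude mice among the strains bought, and another experiment of the paper placed SKOV3ip1 cells in nude mice. The question was which genes differ between treated and control cells on the same side whether or not the tumor still responded.

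VEGF-A is the main growth factor of blood vessel endothelium. It acts through the receptor VEGFR2, the product of Kdr, and the co-receptors Nrp1 and Nrp2, and its signal runs through the kinases ERK and AKT to sprouting, survival and vessel leakiness. Antibodies against it prune the vessels of a tumor and lower its oxygen supply. CD31, encoded by Pecam1, is the surface protein on which the cells were sorted, and platelets and some macrophages carry it too.

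Of 15384 genes that could be tested, 10397 (67.6%) had their sensitive mean and their resistant mean on the same side of the control mean. They were 6170 higher genes (40.1% of all genes tested) and 4227 lower genes (27.5%), while 4987 lay on opposite sides. Each gene was read from 1 probe set, the one with the highest mean over all arrays. The difference from control was over 1 on the log2 scale in both treated groups for 35 higher and 139 lower genes. Both treated groups were set against the same 5 control arrays, so a shared side is not 2 separate observations. Shared control arrays alone put more genes on the same side than on opposite sides. The share to be had in this way was not computed, so the 67.6% is a description. The pooled difference was above 0 for 58.2% of all tested genes and below 0 for 41.8%, with a median of 0.06 log2.

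No single gene passed the test. By limma with Benjamini-Hochberg adjustment over all 15384 genes, 0 genes (0%) were called at an adjusted p under 0.05, and the smallest adjusted p was 0.175. At an unadjusted p under 0.05 there were 849 genes (5.52%), 339 of them higher (2.2%) and 510 lower (3.32%). By the methods' t-test there were 841 such genes and, after adjustment, 0. Without control array 3, 1 gene was called, D130051D11Rik, an unnamed transcript (-1.003, adjusted p = 0.0122). Weighting each array by its own scatter, which took sensitive arrays 1 to 3 down to weights of 0.171 to 0.373 and control arrays 4 and 5 up to 4.02 and 3.41, called 14 genes, all on the same side in both treated groups and 10 of them among the 30 described below. What follows is therefore given as levels and as the position of the arrays. For 65 genes (0.423%) every treated array lay on 1 side of every control array, 26 above (0.169%) and 39 below (0.254%).

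The arrays differed within groups in ways that touch these values. The RNA end difference, the mean log2 gap between the 3 prime and 5 prime control probe sets of Actb and Gapdh, which widens as RNA degrades, was 2.602 ± 0.265 (SD, n = 5) on control arrays and 3.53 ± 1.05 (SD, n = 8) on treated arrays (exact permutation p = 0.0653, two-sided, 0.131 adjusted over 2 array measures). Pecam1 itself lay at 2.39, 2.42 and 2.61 on control arrays 1 to 3, near the floor of 2.01, at 6.56 on both control arrays 4 and 5, and at 2.32 to 3.41 on the treated arrays. The median of 28 endothelial markers was 6.64 and 6.56 on control arrays 4 and 5 and 2.64 to 4.07 on the treated arrays, with control arrays 1 to 3 at 3.06 to 3.19. The endothelial markers were thus low on most arrays of a CD31 sort. Sensitive array 3 had the highest lymphocyte marker medians of all arrays. Its median of 12 B cell markers was 8.12, against 3.15 to 4.22 on the other treated and 2.85 to 5.001 on control arrays. Its median of 15 T and NK cell markers was 5.16, against 2.60 to 2.91 and 2.58 to 4.38. The lowest correlation between arrays was 0.664 within the sensitive group, 0.906 within control and 0.896 within resistant. In sorted bulk RNA, fewer cells of a type and less RNA per cell cannot be told apart.

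The genes described first are the 15 lower and 15 higher genes with the smallest p among those on the same side in both treated groups. All values are log2 intensities after quantile normalization, levels are compared only within a gene, and a difference is treated minus control. In 20 of these 30 genes the treated and control arrays did not overlap, a count that the choice by smallest p favors. They are ordered below by what their proteins are known to do, an order made with their values in view and not tested. The resistant minus sensitive interval spanned 0 for 29 of the 30. Vamp8 was the exception, at 0.97 with a 95% interval of 0.20 to 1.75.

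The promoters of 4 of these genes are shown because Treml4 and Fkbp2 had the widest gaps between groups and Dusp5 and Hdac6 are higher genes with a motif match. RefSeq windows from 250 bases before to 50 after the start in build GRCm38.p6 were searched on both strands for the hypoxia response core ACGTG that HIF factors bind, the AP-1 site TGANTCA and the cyclic AMP element TGACGTCA, which shares the letters ACGT with the first. Capitals mark a match, read as CACGT where it lies on the other strand. The windows lie at chr17:48264045-48264344 (Treml4, plus strand), chr19:6980415-6980714 (Fkbp2, minus strand, the first of its 3 windows), chr19:53528895-53529194 (Dusp5, plus strand) and chrX:7947840-7948139 (Hdac6, minus strand).
Treml4: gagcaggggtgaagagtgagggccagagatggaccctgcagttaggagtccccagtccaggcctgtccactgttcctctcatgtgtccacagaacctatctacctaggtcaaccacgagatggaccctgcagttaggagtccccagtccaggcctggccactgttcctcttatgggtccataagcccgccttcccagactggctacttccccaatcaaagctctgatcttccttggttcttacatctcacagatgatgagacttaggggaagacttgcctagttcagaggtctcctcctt
Fkbp2: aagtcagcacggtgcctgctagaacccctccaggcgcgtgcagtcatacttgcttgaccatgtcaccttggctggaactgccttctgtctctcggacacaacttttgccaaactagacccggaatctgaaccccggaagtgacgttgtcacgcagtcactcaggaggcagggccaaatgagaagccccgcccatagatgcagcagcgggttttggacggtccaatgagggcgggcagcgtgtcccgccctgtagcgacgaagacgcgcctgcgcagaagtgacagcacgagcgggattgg
Dusp5: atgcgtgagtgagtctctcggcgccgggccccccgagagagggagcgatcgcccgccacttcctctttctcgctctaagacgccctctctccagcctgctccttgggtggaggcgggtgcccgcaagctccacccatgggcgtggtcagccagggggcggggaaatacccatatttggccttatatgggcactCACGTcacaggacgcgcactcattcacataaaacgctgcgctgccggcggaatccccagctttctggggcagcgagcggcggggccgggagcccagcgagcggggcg
Hdac6: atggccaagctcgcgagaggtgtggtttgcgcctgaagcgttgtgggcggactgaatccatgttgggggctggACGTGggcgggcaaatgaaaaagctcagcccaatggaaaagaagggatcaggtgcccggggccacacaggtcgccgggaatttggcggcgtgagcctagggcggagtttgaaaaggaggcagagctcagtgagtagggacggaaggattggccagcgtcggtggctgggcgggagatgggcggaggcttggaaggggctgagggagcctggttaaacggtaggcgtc

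The Dusp5 and Hdac6 windows, chosen for a match, each held the ACGTG core, and the Treml4 and Fkbp2 windows held none of the motifs searched. The core was also in windows of the lower genes Upp1, Vamp8 and Ndufa3 and of the higher genes Txndc12, Natd1 and Cenpp. Over all 32851 windows, 19.6% held ACGTG, 7.81% TGANTCA and 1.79% TGACGTCA. For the non-overlapping genes, ACGTG was in 12 of 32 windows of higher genes (25 genes with a window) and in 7 of 44 windows of lower genes (35 genes with a window). TGANTCA was in 2 of the 32 and 5 of the 44, and TGACGTCA in 1 and 2. These shares are descriptions of letters, and no binding was measured.

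Treml4 and Fkbp2 had the smallest p and the widest gaps. Treml4 encodes a receptor of the TREM family found on myeloid cells. It stood at 5.45, 7.12, 6.71, 5.82 and 6.20 on control arrays 1 to 5, at 2.93, 3.06, 4.32 and 4.84 on sensitive arrays 1 to 4 and at 3.76, 4.35, 4.35 and 2.91 on resistant arrays 1 to 4. All 8 treated arrays were below all 5 control arrays, by a gap of 0.61. The difference was -2.45 (SE 0.40, 5.45-fold lower, adjusted p = 0.175), with -2.47 in sensitive and -2.42 in resistant tumors.

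Fkbp2 encodes a prolyl isomerase of the endoplasmic reticulum, which helps proteins fold. Its control arrays read 7.42, 7.26, 7.89, 7.15 and 7.34, its sensitive arrays 6.41, 5.47, 5.32 and 5.81 and its resistant arrays 5.9997, 5.91, 5.73 and 4.55. The gap between the groups, 0.74, was the widest of all 65 non-overlapping genes. The difference was -1.76 (SE 0.29, 3.39-fold lower, adjusted p = 0.175), with -1.66 in sensitive and -1.86 in resistant tumors. Treml4 and Fkbp2 were also called, at adjusted p = 0.0219 and 0.00998, when arrays were weighted by their scatter, and over the 30 alternatives to each their adjusted p ran up to 0.964.

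Mmp8, the collagenase of neutrophils, and Prom1, a membrane glycoprotein of progenitor cells also known as CD133, were dim genes with lower treated arrays. Mmp8 lay at 2.53 to 3.06 on control and 2.01 to 2.39 on treated arrays, a difference of -0.61 (SE 0.11, adjusted p = 0.243). For Prom1 the ranges were 2.52 to 3.62 and 2.01 to 2.50, with 4 treated arrays at the floor, and the difference was -0.83. The floor makes such differences smaller than they may be. Ttll8, a tubulin glycylase, had 6 of 8 treated arrays at the floor and a difference of -0.48. In the values scaled by trimmed means or as deposited, Mmp8, Prom1 and Ttll8 no longer separated the groups.

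**Figure D1:**
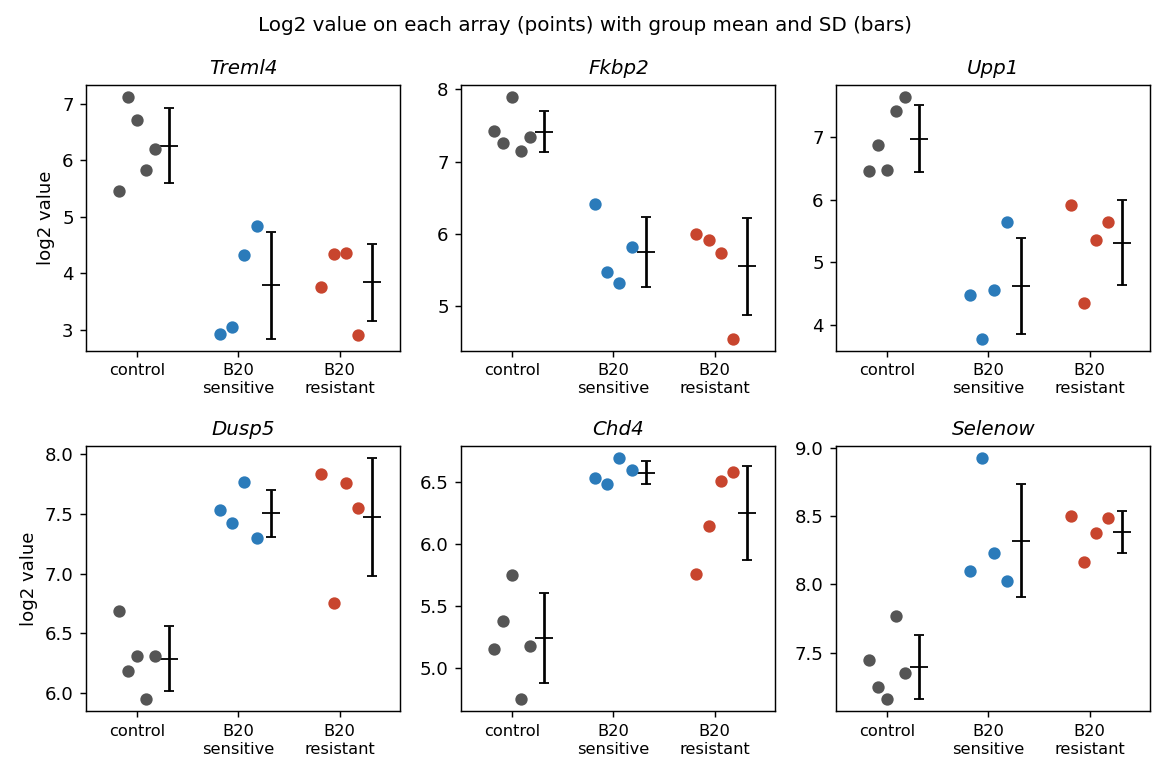
Log2 value (vertical axis) of 6 genes on each array, by group (horizontal axis), with points for arrays and bars for the group mean ± SD. Treml4, Fkbp2 and Upp1 lie lower and Dusp5, Chd4 and Selenow higher on all 8 treated arrays than on all 5 control arrays.

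Several of the lower genes serve endosomes and lysosomes. Lamtor2, a subunit of the Ragulator complex that anchors mTORC1 to the lysosome, was at 6.47, 6.52, 6.31, 6.13 and 6.15 on control, 4.71, 3.99, 4.57 and 5.28 on sensitive and 5.77, 4.62, 5.21 and 3.65 on resistant arrays. Its treated arrays all lay below the control arrays, and the difference was -1.59 (SE 0.33, 3.01-fold lower, adjusted p = 0.333). A second detected probe set of Lamtor2 differed by 0.12, so the lower level rests on 1 of its probe sets.

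Atp6v1f, a subunit of the proton pump that acidifies lysosomes, read 7.99, 7.998, 7.78, 7.58 and 7.35 on control, 6.45, 5.96, 6.69 and 6.50 on sensitive and 6.79, 6.53, 7.14 and 6.89 on resistant arrays. The groups did not overlap and differed by -1.12 (SE 0.24, adjusted p = 0.376). Vamp8, a membrane fusion protein of late endosomes, also separated the groups, with control arrays at 7.24 to 8.45 and treated arrays at 5.34 to 6.85. Its differences were -2.08 in sensitive and -1.10 in resistant tumors.

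Acp5, the tartrate-resistant acid phosphatase of osteoclasts and macrophages, stood at 8.004, 8.90, 8.31, 8.53 and 8.34 on control, 6.30, 4.504, 5.78 and 7.91 on sensitive and 7.13, 6.03, 7.13 and 6.01 on resistant arrays. Sensitive array 4 came closest to the control arrays without reaching them, and the difference was -2.07 (SE 0.45, 4.19-fold lower, adjusted p = 0.388). Lamp5, of the lysosome-associated membrane protein family, was dim, with treated arrays at 2.01 to 2.36 and control arrays at 2.36 to 2.95. Its groups touched, and the difference was -0.53.

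Metabolic genes were also among the lower ones. Upp1, the uridine phosphorylase of pyrimidine salvage, was at 6.47, 6.87, 6.49, 7.43 and 7.65 on control, 4.49, 3.78, 4.56 and 5.65 on sensitive and 5.92, 4.35, 5.36 and 5.64 on resistant arrays. The groups were apart, and the difference was -2.01 (SE 0.38, 4.03-fold lower, adjusted p = 0.326). G0s2, an inhibitor of the triglyceride lipase encoded by Pnpla2, was lower by a similar size, -2.06, but its treated range of 2.01 to 4.25 ran into its control range of 4.10 to 6.34. Exoc3l4, a relative of an exocyst subunit, lay at 3.53 to 4.35 on control and 2.62 to 3.19 on treated arrays, a difference of -0.92.

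Ndufa3 and Ndufs4 encode subunits of complex I, the entry point of electrons into the respiratory chain. Ndufa3 read 8.44, 8.07, 8.27, 8.06 and 7.99 on control, 6.64, 7.498, 7.77 and 6.76 on sensitive and 7.29, 7.03, 6.71 and 6.54 on resistant arrays, a difference of -1.14 (SE 0.25, adjusted p = 0.388). Ndufs4 ranged from 6.11 to 6.65 on control and from 4.62 to 5.88 on treated arrays, a difference of -1.09. Neither gene's groups overlapped. A second probe set of Ndufa3 differed by -1.49 and another by 0.05, and the other 3 of Ndufs4 by -0.44, 0.03 and 0.06, so the lower level holds for only part of their probe sets. Ndufb2 and Atp5j, further subunits of the chain and of ATP synthase named here after their values were seen, also separated the groups, at -0.67 and -0.69.

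Among the higher genes, Dusp5 had the smallest p. It encodes a nuclear phosphatase that switches off ERK, a kinase that VEGF receptors activate. Its control arrays read 6.69, 6.18, 6.31, 5.95 and 6.31, its sensitive arrays 7.53, 7.42, 7.76 and 7.30 and its resistant arrays 7.84, 6.76, 7.76 and 7.55. Resistant array 2 was the lowest treated array and still lay above control array 1, the highest control. The difference was 1.20 (SE 0.24, 2.30-fold higher, adjusted p = 0.326), with 1.22 in sensitive and 1.19 in resistant tumors. Without quantile normalization, in the values as deposited, it was 0.95 and the groups overlapped.

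Chd4, the ATPase of the NuRD chromatin remodeling complex, was at 5.15, 5.38, 5.75, 4.75 and 5.18 on control, 6.53, 6.48, 6.69 and 6.60 on sensitive and 5.76, 6.15, 6.51 and 6.58 on resistant arrays. The sensitive arrays were close together, and resistant array 1 lay only just above control array 3. The difference was 1.17 (SE 0.24, 2.24-fold higher, adjusted p = 0.333). Its 2 other probe sets differed by 0.07 and 0.41, both less than the one reported. They were at 0.22 and 0.86 in sensitive and at -0.07 and -0.03 in resistant tumors. The higher level in resistant tumors therefore rests on the reported probe set.

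Ncoa1 and Hdac6 were higher as well, both without overlap. Ncoa1, a coactivator of nuclear receptors, lay at 5.04 to 5.81 on control and 5.86 to 7.45 on treated arrays, a difference of 1.15 (SE 0.30, adjusted p = 0.694), and its second detected probe set differed by 0.70. Hdac6, a deacetylase of tubulin and HSP90, was at 5.02, 4.95, 4.92, 4.55 and 4.74 on control, 6.36, 6.36, 5.49 and 5.27 on sensitive and 5.30, 5.48, 5.65 and 5.96 on resistant arrays. The groups differed by 0.89 (SE 0.26, adjusted p = 0.795).

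Pias1, a SUMO ligase, Nr1d2, a clock repressor, and Prdm2, a zinc finger protein with a methyltransferase domain, were higher by 1.22, 1.27 and 0.89, each with overlapping groups. Pias1 lay at 5.33 to 6.07 on control and 5.90 to 7.67 on treated arrays, and its 3 other probe sets differed by -0.23, -0.14 and 0.05. Nr1d2 lay at 5.02 to 6.93 on control and 6.77 to 8.23 on treated arrays. The other probe set of Nr1d2 differed by 0.11, and the others of Prdm2 by 0.21 and -0.20.

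Selenow, a small selenoprotein with an antioxidant role, had the smallest p of the higher genes after Dusp5 and Chd4. It read 7.44, 7.25, 7.16, 7.77 and 7.35 on control, 8.10, 8.93, 8.23 and 8.02 on sensitive and 8.504, 8.17, 8.38 and 8.49 on resistant arrays. The groups did not overlap and differed by 0.96 (SE 0.22, 1.94-fold higher, adjusted p = 0.408), while its other probe set differed by 0.25. Txndc12 and Txnl1, both thioredoxin-like proteins, were higher by 1.15 and 0.96 with overlapping groups. Txndc12 lay at 4.08 to 4.44 on control and 4.31 to 6.61 on treated arrays, with only sensitive array 1 within the control range.

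Cdca3, which helps trigger entry into mitosis, separated the groups at 2.66 to 3.27 on control and 3.41 to 4.21 on treated arrays, a difference of 0.74. Natd1, an acetyltransferase domain protein, did so at 3.72 to 4.84 and 4.88 to 6.16, a difference of 0.96. The remaining higher genes overlapped. They were Arhgap24, a regulator of the small GTPase Rac, at 1.10, Cenpp, a centromere protein, at 0.71 and Fgf13, an intracellular member of the FGF family, at 0.61, with 3 of 5 control arrays of Fgf13 at the floor.

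**Figure D2:**
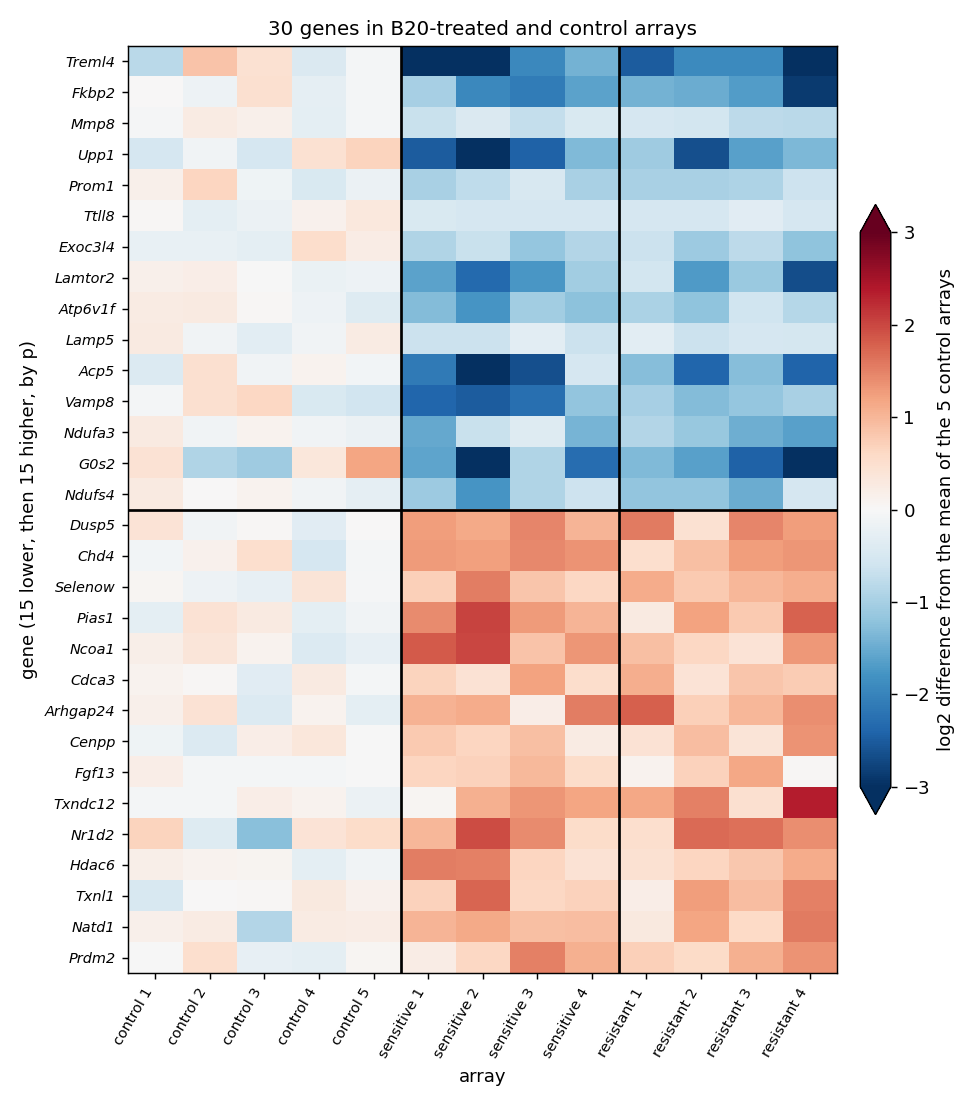
Log2 difference from the mean of the 5 control arrays (color) for the 15 lower and 15 higher genes with the smallest p (rows) on each array (columns), with lines between the groups. Each gene has its 8 treated arrays on 1 side of its control mean, while rows such as G0s2 and Nr1d2 vary widely among control arrays.

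**Figure D3:**
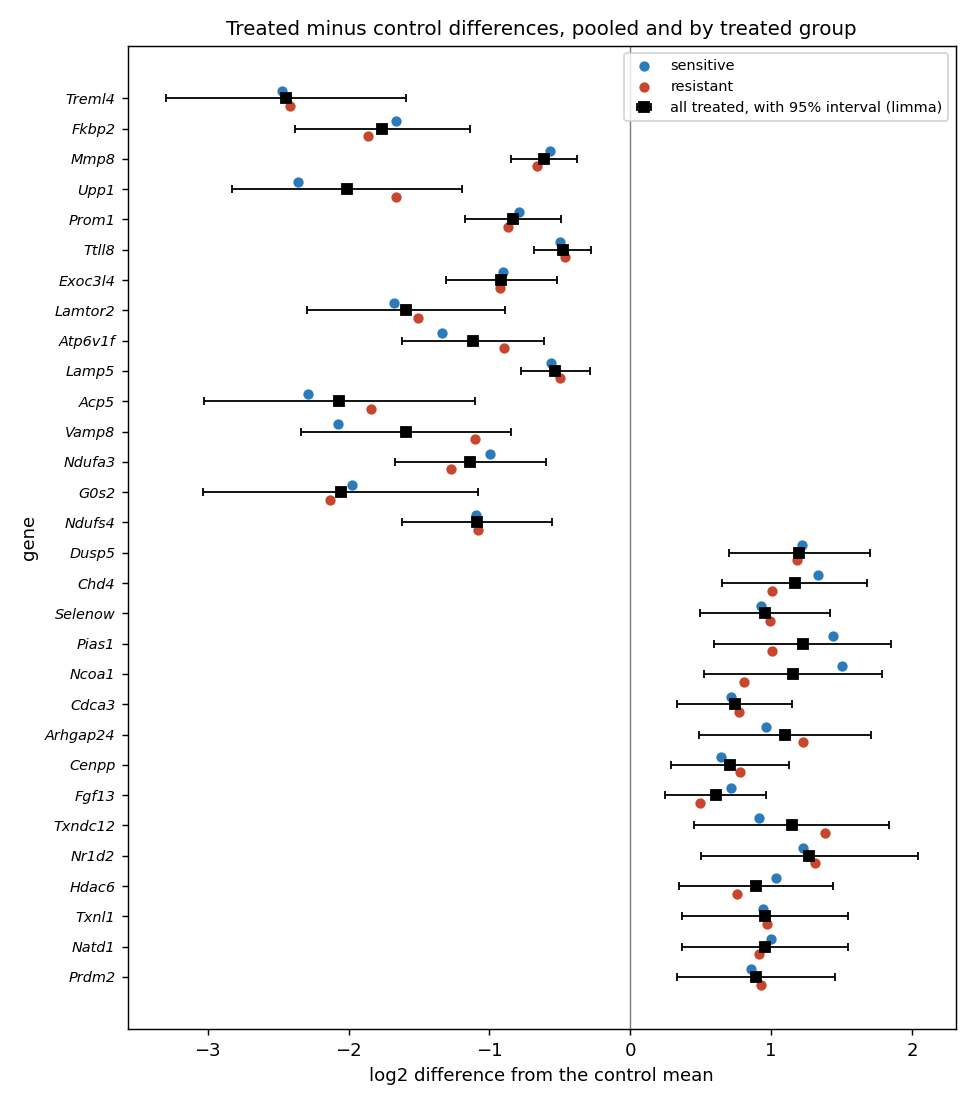
Treated minus control difference in log2 (horizontal axis) of the same 30 genes, with squares and 95% intervals for all treated arrays and dots for the sensitive and resistant groups. Sensitive and resistant dots lie close to each other for Treml4 (-2.47 and -2.42) and Dusp5 (1.22 and 1.19) and farthest apart for Vamp8 (-2.08 and -1.10).

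The choice of probe set and of scaling sets how far these values carry. Of the 30 genes, 16 had 1 probe set. The others had 21 further detected probe sets, of which 14 differed with the same sign and 7 with the opposite one, and 2 reached 0.5 of the reported difference. Of the 65 non-overlapping genes, 20 were also non-overlapping as deposited and 42 after trimmed-mean scaling. The genes of the 30 that separated the groups in all 3 scalings numbered 10. They were Treml4, Fkbp2, Atp6v1f, Vamp8, Ndufa3 and Ndufs4 below the control arrays and Chd4, Cdca3, Hdac6 and Natd1 above them. With the RNA end difference as a covariate, Treml4 differed by -2.66, Fkbp2 by -1.63 and Dusp5 by 1.32, all with adjusted p = 0.694.

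Some of the other non-overlapping genes are given here, singled out after their values were seen. Below the control arrays were Malt1, a signaling protease of lymphocytes, at -1.61, Penk, the enkephalin precursor, at -1.49, Nt5c, a nucleotidase, at -1.38, Psmb6, a proteasome subunit, at -0.82, and Park7, a sensor of oxidative stress, at -0.81. Malt1 differed by -2.54 in sensitive and -0.68 in resistant tumors, and Penk by -1.44 and -1.54. Above them were Ncoa4, the receptor that delivers ferritin for degradation, at 0.99, Pgrmc1, a heme-binding membrane protein, at 0.93, Abl1, a tyrosine kinase, at 0.84, Med12, a subunit of the Mediator complex, at 0.84, and Dot1l, a histone methyltransferase, at 0.63. For 6 of the 65 the resistant minus sensitive difference had an unadjusted p under 0.05. Across the whole table that difference was called for 0 genes, with 1087 at an unadjusted p under 0.05 by limma.

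Gene lists give the wider setting. The 34 lists held 550 tested genes, of which 0 were called, and 30 lists had no gene whose groups were apart. Beside the 5.52% of all genes with an unadjusted p under 0.05 and the 0.423% without overlap, the list counts below are descriptions. List medians were below 0 for 21 lists and above 0 for 13, from -1.23 for complement, made of -1.92 in sensitive and 0.14 in resistant tumors, to 1.16 for mesothelium. The complement median was 0.18 without sensitive arrays 1 to 3.

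Genes of VEGF signaling and of vessel identity had list medians below 0 that turned above 0 without control arrays 4 and 5, though not every member turned. Of 28 endothelial markers, 27 were lower and 3 had an unadjusted p under 0.05, with a list median of -0.95 (-1.23 in sensitive and -0.75 in resistant tumors). Those 3 were Fli1, an ETS transcription factor, at -1.70, Ecscr, an endothelial surface protein, at -1.29 and Emcn, endomucin, at -1.21. Without control arrays 4 and 5 the list median was 0.32, Ecscr differed by -0.15 and Emcn by 0.097, while Fli1 still differed by -1.62. Fli1 lay at 5.08 to 6.54 on control arrays, at the floor on sensitive arrays 1 and 2 and at 3.14 to 6.37 on the other treated arrays. Another probe set of Fli1 differed by -0.41.

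Of 10 VEGF ligands and receptors, 6 were lower and 1 had an unadjusted p under 0.05, with a median of -0.22. Nrp2 stood at 7.85, 6.41, 6.22, 8.22 and 8.48 on control, 4.33, 4.71, 4.23 and 7.17 on sensitive and 7.16, 5.99, 6.83 and 6.28 on resistant arrays, a difference of -1.60 with overlapping groups. Flt1, which encodes VEGFR1, differed by -1.17 and Nrp1 by -1.53. The other probe sets of Flt1 differed by -2.09, -1.41 and -1.08, and those of Nrp1 by -1.50, -0.50 and -0.20. Kdr differed by -0.68, but its control arrays 4 and 5 were at 8.65 and 9.08 and the others at 3.97 to 4.89, against 3.63 to 6.61 on treated arrays. On the reported probe sets and without those 2 control arrays, Kdr differed by 1.04, Flt1 by -0.013, Nrp1 by -0.52 and Nrp2 by -0.99. The list median was then 0.41. Leaving out control array 4 or 5 alone took that median to 0.0050 or 0.026. Vegfa, which encodes the target of B20, was 0.60 higher on average, at 5.84 to 7.505 on control and 5.20 to 9.25 on treated arrays.

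The angiopoietin and Notch genes and the basement membrane genes had medians that turned in the same way. These were -0.36 over 17 genes and -0.57 over 19 genes, and 0.17 and 0.25 without control arrays 4 and 5. Angpt2, the vessel-destabilizing angiopoietin, differed by -1.33, with control arrays 4 and 5 at 6.78 and 7.16 and all other arrays at 2.93 to 4.34. Jag1, a Notch ligand, differed by -1.74, its resistant arrays at 5.73 to 6.72 and sensitive arrays 1 to 3 at 2.47 to 3.56. Notch2, a Notch receptor, differed by -1.19, with -1.94 in sensitive and -0.44 in resistant tumors. Without control arrays 4 and 5, Jag1 differed by -1.41 and Notch2 by -1.33, so these did not turn with the list, while Angpt2 was at 0.012. These values rest on the reported probe sets. Over all arrays another probe set of Notch2 differed by 0.33, and others of Jag1 by -1.82 and -0.06. Lamb1, a laminin chain, differed by -1.33, and Lama4, an endothelial laminin chain, by -0.91.

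Chemokine and inflammatory cytokine genes were lower without depending on 1 group of arrays for their sign. Of 25 genes, 24 were lower, 16 of them in both treated groups, and 4 had an unadjusted p under 0.05. The median was -0.80, with -1.57 in sensitive and -0.27 in resistant tumors, and it stayed below 0 in every alternative run, from -1.32 to -0.24. Ccl7, a monocyte attractant, stood at 7.75, 6.14, 6.57, 7.82 and 6.63 on control, 6.50, 5.27, 3.70 and 5.86 on sensitive and 6.01, 5.35, 5.84 and 4.96 on resistant arrays. Only sensitive array 1 was above the lowest control array, and the difference was -1.54 (SE 0.44, adjusted p = 0.785).

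Ccl3, a macrophage chemokine, and Il1b, the cytokine interleukin-1 beta, differed by -2.29 and -2.18. Ccl3 ranged from 8.96 to 10.29 on control and from 4.59 to 9.07 on treated arrays, with resistant array 1 the only one in the control range. The macrophage and monocyte markers were lower too, 21 of 23 of them, with list levels of 7.99 to 9.12 on control and 4.42 to 9.16 on treated arrays and with Itgam, an integrin of these cells, at the floor on sensitive arrays 1 to 3. Their median difference was -1.07, made of -2.29 in sensitive and -0.03 in resistant tumors. It was 0.17 without sensitive arrays 1 to 3, and its part in the chemokine values was not tested. Without those arrays the chemokine median was -0.24. Of the macrophage and monocyte markers, 1 had an unadjusted p under 0.05, Clec4n, at -3.09 (adjusted p = 0.820 by limma). It differed by -4.23 in sensitive and -1.96 in resistant tumors, and its other probe set by -3.74 and -3.09.

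Neutrophil genes had 8 of 12 lower and 5 with an unadjusted p under 0.05, with a median of -0.30 that stayed below 0 in every alternative run. S100a8, a calcium-binding alarmin, stood at 7.58, 9.12, 8.81, 8.29 and 8.84 on control, 2.93, 5.05, 7.17 and 7.08 on sensitive and 6.42, 6.75, 6.51 and 8.10 on resistant arrays, a difference of -2.28 (SE 0.67, adjusted p = 0.806). One treated array, resistant array 4, was above the lowest control array. Its partner S100a9 differed by -1.64, and Mmp8 is described above.

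The lysosome list, which did not hold Lamtor2, Atp6v1f, Vamp8 or Acp5, had 17 of 17 genes lower, but only 5 of them in both treated groups. Its median was -0.54, with -1.29 in sensitive and 0.12 in resistant tumors, and 0.17 without sensitive arrays 1 to 3. Ctsz, a cathepsin, differed by -1.71. The hypoxia and glycolysis list split between treated groups too, with a median of -0.25 made of -1.04 in sensitive and 0.24 in resistant tumors, and 0.029 without sensitive arrays 1 to 3. Among its members on the same side in both, Pfkfb3 and Pfkp, which drive glycolysis at the phosphofructokinase step, differed by -1.22 and -1.23, and Hk2, a hexokinase, by 1.17. Another probe set of Pfkfb3 differed by 0.19, and others of Pfkp by -0.34 and -0.48.

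Respiratory chain genes were lower in small steps. Of 19 genes, none of them Ndufa3 or Ndufs4, 17 were lower, 14 of these in both treated groups, with a median of -0.26 that lay between -0.52 and -0.13 over the alternatives. Ndufa1, a complex I subunit, read 10.73, 10.36, 10.48, 10.35 and 10.17 on control, 8.68, 9.17, 10.14 and 10.23 on sensitive and 9.64, 9.76, 9.50 and 9.32 on resistant arrays. Only sensitive array 4 reached the control range, and the difference was -0.86 (SE 0.26, adjusted p = 0.806), the same in both treated groups. Ndufa9 differed by -0.98 and Atp5b, the catalytic subunit of ATP synthase, by -0.67. Ribosomal protein genes, another abundant class, had a median of 0.04, which was -0.16 as deposited, -0.14 without sensitive array 3 and -0.011 without control array 5.

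The unfolded protein response list, which holds Fkbp2, had 13 of 20 genes lower and a median of -0.18. Pdia6, a disulfide isomerase, was the list's other gene without overlap, at 8.79 to 8.90 on control and 7.35 to 8.62 on treated arrays, a difference of -0.66. Xbp1, the transcription factor that drives the response, was higher instead, at 8.17 to 8.74 on control and 8.72 to 9.78 on treated arrays with 1 array, resistant array 1, in the control range, a difference of 0.70 (SE 0.23, adjusted p = 0.820). Of 17 interferon genes, 12 were lower with a median of -0.34, which turned to 0.10 without control arrays 4 and 5. Oas1a, an antiviral sensor of double-stranded RNA, lay at 7.20 to 7.51 on control and 5.09 to 7.09 on treated arrays without overlap, a difference of -0.98.

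Matrix proteases and their inhibitors had 11 of 15 genes lower, with a median of -0.32 made of -0.64 in sensitive and 0.05 in resistant tumors. Without sensitive array 3 alone that median was 6.6e-04. Mmp3, stromelysin, differed by -1.16 and Mmp9, a gelatinase, by -1.03. Of 15 genes of cholesterol synthesis and efflux, 10 were lower with a median of -0.35, and of -0.015 with the RNA end difference as a covariate. Among them were Fdps, a farnesyl diphosphate synthase, at -0.58 and Insig1, a sterol sensor, at -1.10, with -1.94 in sensitive and -0.26 in resistant tumors.

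Immediate early and proliferation genes had higher means on treated arrays. Of 21 immediate early genes 19 were higher, 14 of them in both treated groups, with a median of 0.34. Nr4a1, an orphan nuclear receptor, lay at 7.05 to 9.62 on control and 8.75 to 10.96 on treated arrays, a difference of 1.35. Fos and Egr1 differed by 1.19 and 1.21, with control arrays 4 and 5 the lowest of the control arrays for Nr4a1, Egr1 and Fos. Without those arrays the list median was 0.05. Of 22 proliferation genes 19 were higher, with a median of 0.29 that was 0.02 without sensitive arrays 1 to 3. Ccnb2, a mitotic cyclin, differed by 0.98, and Pcna, the sliding clamp of replication, by -0.61.

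Markers of the mesothelium, which lines the peritoneum, had the highest list median, at 1.16, with 12 of 12 genes higher and 3 with an unadjusted p under 0.05. The medians were 1.23 in sensitive and 1.13 in resistant tumors. The control arrays had list levels of 3.19 to 4.96 and the treated arrays 2.58 to 7.37, so that the mean difference came from some of the treated arrays. Gpm6a, a membrane glycoprotein, lay at 2.01 to 2.83 on control arrays and at 5.48, 7.29, 2.598 and 2.595 on sensitive and 2.46, 6.36, 5.41 and 3.65 on resistant arrays. Without the 5 arrays of lowest mean intensity, a selection made after the data were seen, the list median was -0.09.

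**Figure D4:**
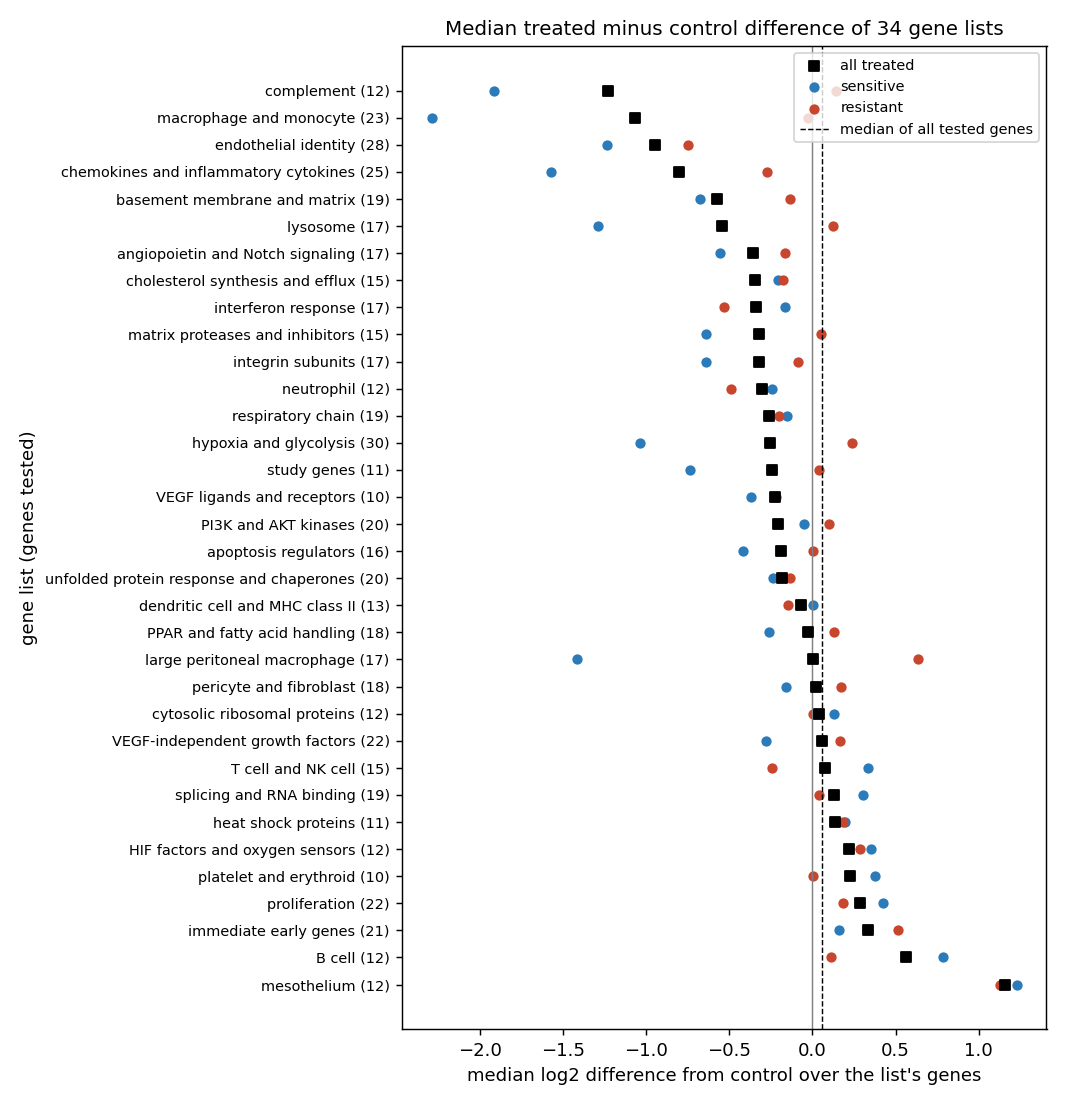
Median log2 difference from control over the tested genes of each of 34 lists (rows, number of tested genes in brackets), for all treated arrays (squares) and for sensitive and resistant arrays (dots), with a dashed line at the median of all tested genes, 0.06. Mesothelium (1.16) lies farthest to the right, and macrophage (-2.29 against -0.03) and lysosome genes (-1.29 against 0.12) are among those whose sensitive and resistant medians lie apart.

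**Figure D5:**
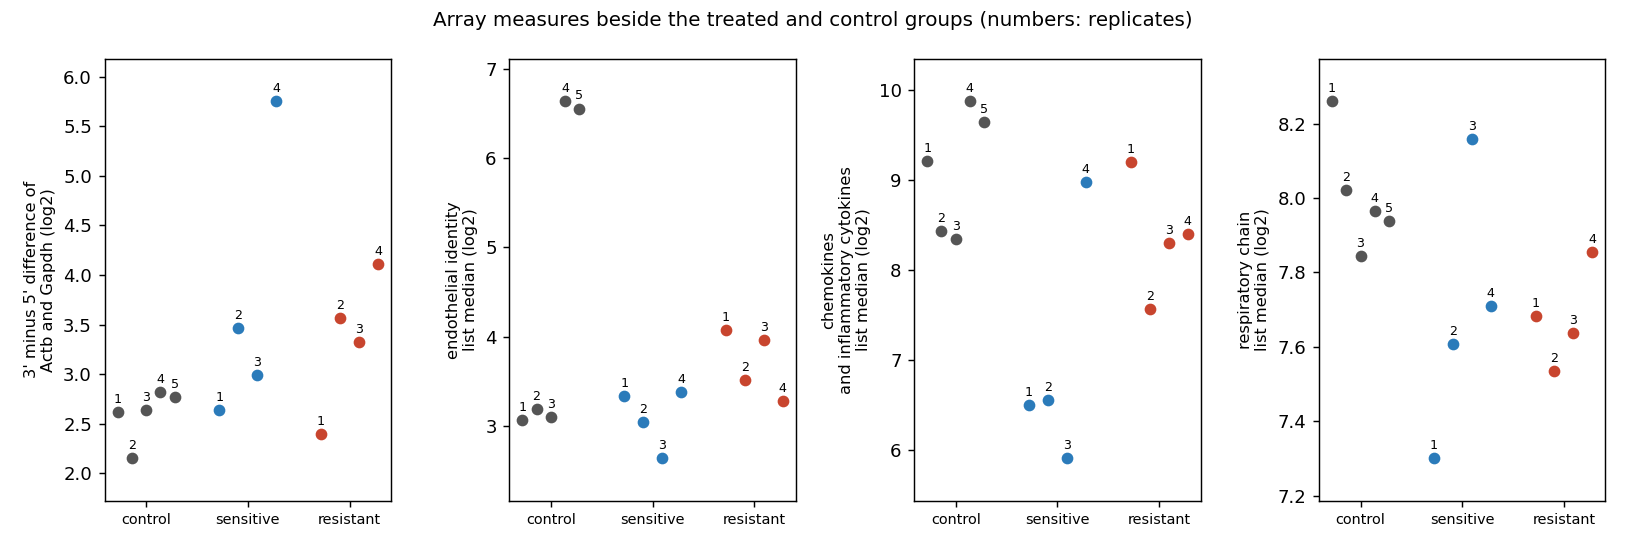
RNA end difference and the medians of 3 gene lists (log2, vertical axes) for each array of the 3 groups, replicate numbers beside the points. Control arrays 4 and 5 stand apart for endothelial identity (6.64 and 6.56), sensitive arrays 1 to 3 are the lowest for chemokines, and the respiratory chain medians of treated arrays, 7.30 to 8.16, overlap the control range of 7.84 to 8.26.

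The genes the study turned on were set beside these lists. Cd5l, a secreted scavenger protein of macrophages, had a pooled difference of 0.00 (adjusted p = 1.00), made of -2.42 in sensitive and 2.43 in resistant tumors, so that it is not among the genes on the same side. Cd36, a fatty acid receptor and a receptor of CD5L, differed by -1.63 (adjusted p = 0.820), with -2.87 and -0.38. Other probe sets of Cd36 differed by -1.02, with -2.33 in sensitive and 0.29 in resistant tumors, and by -0.74. Pparg, the lipid-sensing nuclear receptor, was dim and differed by -0.22, Hif1a, the hypoxia factor, by -0.33 and its partner Arnt by 0.26. The other probe sets of Hif1a differed by -0.99, -0.79 and 0.09. The other detected ones of Arnt differed by 0.07, 0.0028 and -0.0095. On the reported probe sets, Epas1, which encodes HIF-2 alpha, and the kinase gene Akt1 were on opposite sides in the treated groups. They were at -0.74 and 0.25 and at -1.09 and 0.12. The other probe set of Epas1 was above control in both, at 0.47 in sensitive and 0.15 in resistant tumors. Another probe set of Akt1 was on opposite sides too, at -1.02 and 0.30. The remaining ones of Akt1 were above control in both, at 0.25 and 0.14 and at 0.27 and 0.02. Akt2, a second AKT gene, differed by 0.43 and Pecam1 by -1.20. None of these passed the test, with adjusted p over all genes.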

How the data were processed

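RNA of CD31-sorted cells was hybridized to 13 single-color Affymetrix mouse genome arrays, deposited as separate biological replicates. The labels tie none to a named animal, so the p-values cover the scatter among these arrays, which may be technical. Per the labels, biotinylated cRNA was processed with MAS5, and no version is given. The methods describe Illumina bead chips, BRB-ArrayTools and a Student t-test with a random variance model, so the sources disagree. The values deposited by the authors cover 45101 probe sets and were taken as log2, the base being assumed. Groups were taken from the titles.

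Values were quantile normalized, and those under the 30th percentile, 2.01, were set to it. Of 18193 named genes (34958 probe sets with 1 symbol, 932 with several, 9211 not listed), those above the floor on at least 4 arrays were tested, 15384 in all, leaving out 2809. Treated arrays were compared with control arrays in R 4.3.3 with limma 3.58.1 (lmFit, eBayes with an intensity trend, two-sided, Benjamini-Hochberg over all tested genes), and resistant with sensitive arrays in a fit of 3 groups. The script was tested on simulated data. Named genes are the 15 with the smallest p in each direction on the same side in both treated groups, genes of the study, and up to 3 genes of each list described, by smallest p. Unnamed transcripts were left out. The members and the gene lists were chosen with earlier results of these data known. Alternatives covered scaling, floor, filters, probe sets, variance model, weights, covariate, block and left-out arrays. The number of arrays limits the precision.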

Additional observations from a re-analysis of the deposited data

Results flagged for a closer look

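In 273 groups of 4 or 5 arrays, over 91 genes, 17 groups held 1 array far from the rest by Dixon's ratio. Chance gives about 1 in 20 for values that are not set to a floor. Where all other arrays of a group lay at the floor the ratio was 1 by construction, as for Ttll8, Muc16, Pparg and Itgam. The highest values standing apart were Txnl1 at 9.82 on sensitive array 2, Akt2 at 6.78 on resistant array 3 and Atp6v0d2 at 3.81 on resistant array 1. Sensitive array 4 stood apart for Itgam at 6.31, Nrp2 at 7.17, Egr1 at 9.56 (lowest of its group) and Pparg at 2.51, and the first 2 of these had the other sensitive arrays at 2.01 and at 4.23 to 4.71. The lowest of their groups were Natd1 at 3.72 and Xbp1 at 8.17 on control array 3, Jag1 at 5.73 on resistant array 2 and Pdia6 at 7.83 on resistant array 4. The remaining cases were dim genes near the floor of 2.01, namely Prom1 at 2.35 on resistant array 4, Ttll8 at 2.07 on sensitive array 1 and 2.19 on resistant array 3, Lamp5 at 2.34 on sensitive array 3, Fgf13 at 2.27 on control array 1 and Muc16 at 2.07 on control array 3.

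Cd5l lay on opposite sides of control in the treated groups, with a resistant minus sensitive difference of 4.86 and a 95% interval of 2.69 to 7.02 (limma adjusted p = 0.307). It was picked by the study from these same arrays, and the value is therefore no independent observation.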

How the results depend on the processing

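All 30 genes described first kept their sign in every alternative that tested them, which their choice by smallest p on these same arrays favors. Sizes were less steady. The smallest difference over the alternatives was 0.11 for Cenpp, 0.23 for Pias1, 0.29 for Txnl1, 0.30 for Prdm2 and -0.38 for Ndufs4. Of 2719 alternative values of named genes, 2681 kept their direction and their side of the threshold, 10 became called under array weights and 28 changed sign. Of 884 list medians, 877 moved by less than the spread between arrays. That spread is wide, and 81 of the 884 changed sign, in 24 of the 34 lists and in 11 of them without a single array. Of these 81, 22 were of lists whose reported median was over 0.2 in size. The number of genes called went from 0 to 14 with array weights, 14 of them on the same side in both treated groups, and to 1 when every probe set was tested on its own, an alternative chosen after seeing the data. Leaving out single arrays gave 0 to 1, the 1 being D130051D11Rik without control array 3. The count of non-overlapping genes, 65, was 74 to 142 without single arrays, 203 without control arrays 4 and 5 and 253 without sensitive arrays 1 to 3. It was 484 without the 5 dimmest arrays and 126 without the 2 arrays of largest end difference, both chosen after seeing the data. Fewer arrays raise this count by construction. The split of same-side genes into higher and lower was 59.3% to 40.7%, and 55.2% to 44.8% as deposited and 71.4% to 28.6% with trimmed-mean scaling, which moved the median of all genes to 0.19.

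The replicate numbers were not taken to pair the arrays. Correlations of same-numbered arrays ran from -0.43 to 0.53, and 5 of 13 arrays correlated best with their own number. With so few arrays per number, these values cannot decide whether the numbers pair them. With the replicate block 0 genes were called, 605 at an unadjusted p under 0.05, against 849 without it. Under the block Epas1 was 0.24 and Kdr 0.018.

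The sign of single genes changed as follows, and the cause was not tested. Cd5l, at 0.00, was -0.11 as deposited, -0.69 to 0.66 without single arrays, -0.62 without the 5 dimmest arrays and -0.022 without the 2 of largest end difference. Pparg was 0.058 with trimmed-mean scaling, Vegfa -0.085 with the end difference as covariate and Akt1 0.090 with array weights and 0.039 without sensitive arrays 1 to 3. Epas1 was 0.032 with the mean of all probe sets, -0.65 to 0.24 without single arrays and 0.11 without sensitive arrays 1 to 3, and Kdr was -1.26 to 0.018 without single arrays. Without control arrays 4 and 5, Hif1a was 0.0079, Epas1 1.00, Kdr 1.04, Pecam1 0.44, Emcn 0.097, Angpt2 0.012, Lamb1 0.14 and Lama4 0.18. Every alternative planned was run. With 13 arrays and 0 called genes, these data limit what can be said of any 1 gene.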

Other observations

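Probe sets that the platform table assigns to no single gene were fitted as well. Of 6228 such probe sets tested, 0 were called by limma and 25 had treated and control arrays that did not overlap, 11 higher and 14 lower (0.401%).

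The non-overlapping genes differed in genomic length by direction. The median was 12.8 kb for the 39 lower genes, 31.0 kb for the 26 higher genes and 21.1 kb for all tested genes with a length. Among the genes at an unadjusted p under 0.05 the medians were 16.99 kb for the lower and 28.3 kb for the higher genes. The RNA end difference was also larger on treated arrays, and its part in this was not tested.

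Lists whose genes were not described above held single genes with values worth giving. Met, the receptor of hepatocyte growth factor, differed by -1.42 (SE 0.42, adjusted p = 0.806 by limma), with -1.73 in sensitive and -1.12 in resistant tumors. H2-Eb1, a class II antigen presentation gene, differed by -1.35, Itgal, an integrin of leukocytes, by -1.51 and Rpl7, a ribosomal protein gene, by 0.72, each on the same side in both treated groups. Each of these was chosen as its list's same-side member with the smallest p. The list medians were -0.07 for class II (8 of 13 genes lower) and 0.04 for ribosomal proteins (6 higher and 6 lower). They were -0.32 for integrins (13 of 17 lower) and 0.05 for the growth factor list of Met (10 of 22 lower).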
